A study of Mus musculus with 3 samples.

Results

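C5 was the cluster of splenic donor CD8+ T cells that the authors named Tcf7hi. Its members were the cells of the single cluster in the deposited table of CD8+ cells whose numbers in all 3 treatment groups equalled those of the Tcf7hi cluster, and they came to 798 of 10833 CD8+ T cells and of 21204 T cells in all. All recipients were irradiated B6D2F1 mice, an F1 hybrid, that received allogeneic bone marrow and T cells from C57BL/6 (B6) donors together with a small number of TEa T cells, which carry a transgenic TCR for recipient alloantigen, so every group developed under a graft-versus-host response and no group lacked a transplant. From day 0 to day 6 the recipients received saline or cyclosporine A (CSA), the latter at a low dose of 5 mg/kg or a high dose of 50 mg/kg per day, and spleens were taken on day 7 from 6 mice per group. The ages of the mice were not given in the labels. Spleens of 2 mice were combined into a pool, which gave 3 pools per group, and donor T cells of both lineages (CD90.2+, 7-AAD-) were purified by sorting and mixed 1:1. C5 held 449 cells in the saline group, 273 in the low dose group and 76 in the high dose group.

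CSA binds cyclophilin and blocks the phosphatase calcineurin, which keeps NFAT factors out of the nucleus after TCR stimulation. TCF-1, the product of Tcf7, marks CD8+ T cells that divide slowly, renew themselves and give rise to effector cells during chronic infection, in tumours and after transplantation, and such cells often carry Slamf6, Cxcr5 and PD-1 while lacking granzymes. Naive and central memory CD8+ T cells share Tcf7 and Il7r with them but lack the marks of recent TCR stimulation, so a Tcf7hi cluster can hold cells of more than one history.

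The pools of a treatment group shared 1 droplet capture, so capture and treatment cannot be told apart, and p-values measure the spread between pools within captures. Depth differed between captures, with medians of 4108, 6121.5 and 7183 unique molecular identifiers (UMIs) per CD8+ cell in the saline, low dose and high dose captures. In C5, a pool summed to between 112605 and 778047 UMIs. Of the C5 cells, 6 had a barcode sequence that also occurred in another capture, and 44 carried a second hashtag at 0.5 or more of the strongest one. Levels are given as CPM, the UMI count of a gene relative to all UMIs of its pool, after TMM scaling unless stated, and changes as log2 fold changes from the quasi-likelihood test of edgeR on counts summed per pool, with Benjamini-Hochberg adjusted p-values over all genes tested and a threshold of 0.05.

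The markers of C5 were compared among the 9 CD8+ clusters as a description, without a test, since the clusters were made from these counts. Averaged over the 9 pools and without TMM scaling, Tcf7 stood at 314 CPM in C5 and at 206 in C7, the naive cluster, which was next. Id3, an inhibitor of E proteins linked to memory formation, was at 245 against 62.1 in C7. Slamf6, a surface receptor of stem-like T cells, was at 408 against 114 in C0, the next cluster for this gene. These 3 genes and Cxcr5 were highest in C5 among all clusters. Il7r, the interleukin-7 receptor that keeps resting T cells alive, was at 296 in C5 and at 343 in C7, and the survival factor Bcl2 was at 197 against 275. The order for both of these genes depended on the group. In saline C5 ranked first, with Il7r at 445 against 414 in C7 and Bcl2 at 315 against 246, and with CSA at either dose it was second to C7. Of effector markers, Gzmb was at 805 in C5 against 3713 in C4, the highest cluster, and C5 ranked eighth of 9.

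The genes that stood furthest above the other CD8+ cells in every pool included Tcf7, at 314 ± 144 against 35.8 ± 12.1 CPM, again unscaled (SD, n = 9 pools), and Id3 at 245 ± 65.1 against 23.0 ± 2.44. The 15 leading genes also held Ccr7, the receptor that guides T cells into lymph nodes, at 92.6 ± 28.0 against 16.7 ± 4.94, the CD30 ligand gene Tnfsf8 at 89.6 ± 48.5 against 12.5 ± 6.62, and the cytokine signalling inhibitor Socs1 at 149 ± 39.4 against 51.1 ± 15.8. Interferon-stimulated genes formed a second kind of leading gene. Ifit3, Rsad2, Ifit1 and Rtp4 were all among the 15, with Ifit3 at 112 ± 129 against 10.8 ± 3.37, and the SD shows that its level in C5 was uneven between pools. Among markers of other cell types, no UMI of Cd79a, Ms4a1, Sdc1, Ncr1, Pf4 or Ppbp was counted in C5, nor any of Cd4, which was at 0 in every CD8+ cluster. Other members of the same lists were counted, with 66 UMIs of Cd79b, 242 of Xbp1, which activated T cells also express, 21 of Cd40lg and 1 each of Foxp3, Jchain and Iglc2. Summed over the list, the CD4+ T cell markers stood at 0 to 13.4 CPM in C5 pools and 0.935 to 12.8 in the other CD8+ cells, the B cell markers at 6.49 to 26.6 and 18.1 to 32.3, and the plasma cell markers at 43.7 to 97.7 and 58.7 to 404. In the same order, the myeloid markers stood at 193 to 302 CPM in C5 pools and 269.7 to 346 in the other CD8+ cells, the NK markers at 23.0 to 79.9 and 52.4 to 163, and both platelet markers at 0 in every C5 pool. The erythroid markers were higher in the high dose capture. In C5 they stood at 1.91 to 15.1 CPM in pools of saline and 5 mg/kg and 23.0 to 44.4 at 50 mg/kg. In the other CD8+ cells these ranges were 3.93 to 18.3 and 23.8 to 48.2. For the CD8 antibody tag no difference between C5 and other CD8+ cells was called, with a mean log2 ratio of medians of -0.02 ± 0.10 over 9 pools (two-sided exact sign-flip permutation test, p = 0.680).

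**Figure D1:**
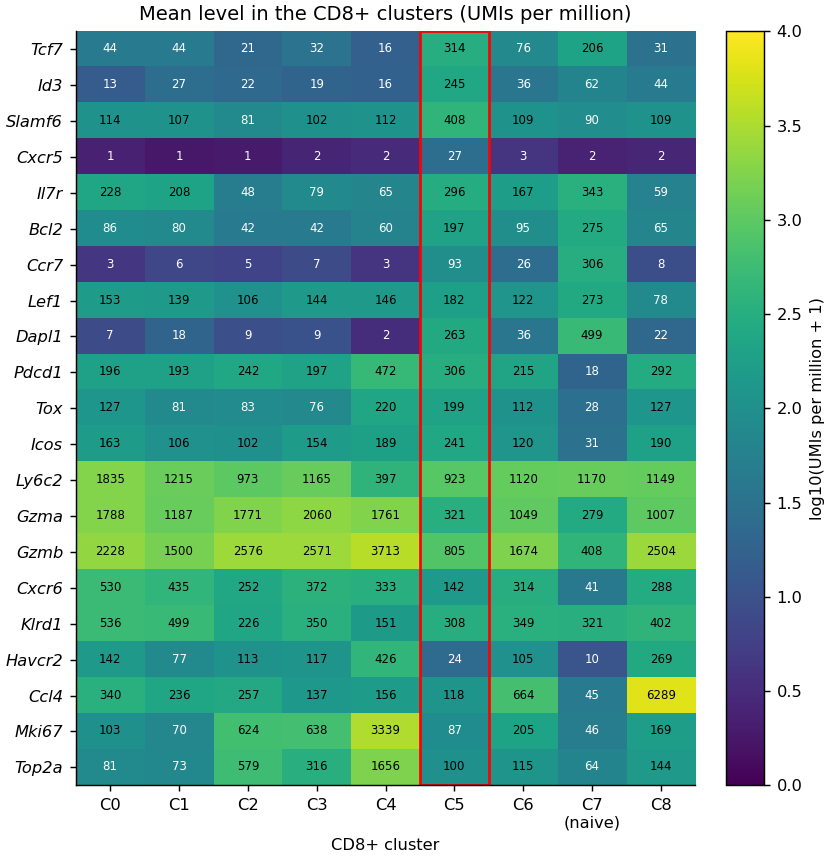
Levels of marker genes in the 9 CD8+ clusters, each in CPM without TMM scaling, averaged over pools and coloured on a log10 scale. C5 is highest for Tcf7, Id3, Slamf6 and Cxcr5, the naive cluster C7 is higher for Il7r and Bcl2 in this mean over all groups, and C5 is among the lowest clusters for Gzmb.

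C5 was a smaller part of the CD8+ cells at 50 mg/kg than in saline or at 5 mg/kg. In saline its shares were 8.51%, 10.1% and 10.3% in the 3 pools, at 5 mg/kg 11.6%, 9.70% and 9.87%, and at 50 mg/kg 2.15%, 1.6% and 2.63%. The exact 95% binomial intervals, which cover counting error only, reached from 0.952% to 3.66% over the high dose pools and from 7.11% to 14.2% over the others. The pools of saline and 5 mg/kg overlapped and all 3 pools at 50 mg/kg lay below them. The means were 9.63% ± 0.980, 10.4% ± 1.03 and 2.13% ± 0.516 (SD, n = 3 pools), a difference of -7.51 points between 50 mg/kg and saline. The exact permutation test of 3 pools against 3 gave p = 0.1 for 50 mg/kg against either of the other groups, the smallest p that this design allows, and p = 0.6 for 5 mg/kg against saline. The exact Jonckheere-Terpstra permutation test of a trend over the 3 doses gave p = 0.0738. On cell numbers, edgeR gave a log2 change of -2.16 (SE 0.18, adjusted p = 1.26e-06) at 50 mg/kg and 0.10 (adjusted p = 0.595) at 5 mg/kg. Among CD8+ cells outside the cycling clusters C2, C3 and C4, C5 made up 20.6%, 20.5% and 4.0%. Tcf7 and other genes that define the cluster were themselves lower at 50 mg/kg, so the share counts the cells that the authors' clustering placed in C5.

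The make-up of C5 also differed between the groups. In the authors' finer clustering of the same cells, 2 finer clusters held most of C5, numbers 9 and 10, and a smaller one, number 12, was set apart by interferon-stimulated genes. In saline, 338 of 449 C5 cells were in finer cluster 10 (75.7% ± 5.70 over pools) and 77 in finer cluster 9 (17.1% ± 4.49). With CSA at 5 mg/kg the order was the opposite, with 16 cells in finer cluster 10 (5.92% ± 1.40) and 236 in finer cluster 9 (86.2% ± 1.70). At 50 mg/kg, 6 cells were in finer cluster 10 (8.91% ± 6.78) and 50 in finer cluster 9 (63.5% ± 14.9). As a share of all CD8+ cells, finer cluster 9 came to 1.65% ± 0.519 in the saline pools, 8.94% ± 0.793 with the low dose and 1.38% ± 0.617 with the high dose. Finer cluster 12 held 20, 14 and 15 C5 cells in the order of dose, and 9 of the 15 came from pool 1 at 50 mg/kg, where they were 37.5% of the 24 C5 cells. The finer clusters were made from the same counts as the levels below, and each result on genes is therefore given for all C5 cells and, where the value or the call moved, for finer cluster 9 alone, which had at least 10 cells in every pool, or without finer cluster 12. Both of these were chosen after the data had been seen.

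**Figure D2:**
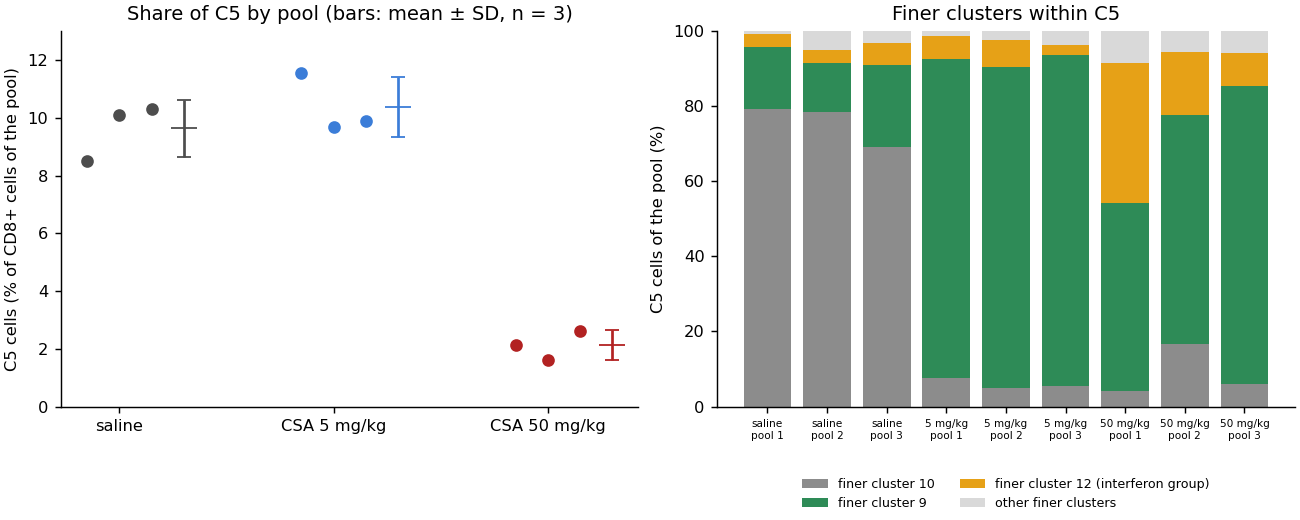
Share of C5 among CD8+ cells per pool in percent, and the make-up of C5 by the authors' finer clusters in percent of C5 cells, for the 3 pools of each group. The 3 pools at 50 mg/kg lie between 1.6% and 2.63%, below all others, and finer cluster 10 dominates C5 in saline but not with CSA.

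Between saline and 50 mg/kg, 1135 of 6654 tested genes rose (17.1%) and 1175 fell (17.7%). Between saline and 5 mg/kg, 1079 rose (16.2%) and 1358 fell (20.4%), and between 5 and 50 mg/kg, 261 rose (3.92%) and 219 fell (3.29%). Scaling moved these splits. With library size in place of TMM the median of all genes was at -0.53 rather than -0.07 at 50 mg/kg against saline and at -0.48 rather than -0.07 at 5 mg/kg, and 505 genes rose and 2387 fell, or 392 and 2894, respectively. The 3 comparisons share samples, so their lists are not independent of each other. The shares of all genes that rose or fell in each comparison are the ones to set beside counts of list members below.

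Within finer cluster 9 alone, where 2916 genes were tested, the comparisons came apart. Between saline and 50 mg/kg 91 genes rose (3.12%) and 106 fell (3.64%), between saline and 5 mg/kg 31 rose (1.06%) and 7 fell (0.24%), and between 5 and 50 mg/kg 130 rose (4.46%) and 144 fell (4.94%). The genes called in all C5 cells that could be tested in finer cluster 9 numbered 1440 for 5 mg/kg against saline, with a median absolute log2 change of 0.69 in C5 and of 0.11 in the same direction within finer cluster 9. For 50 mg/kg against saline they numbered 1459, with medians of 0.90 and 0.30, and 167 of them were also called there in the same direction. For 50 against 5 mg/kg they numbered 391, with medians of 0.81 and 0.74. Within finer cluster 9, most of the calls at 5 mg/kg against saline were small or absent and those at 50 mg/kg against saline were smaller. The calls between 5 and 50 mg/kg were about as large there as in all of C5. The finer clusters were made from the same counts, and 338 of the 360 C5 cells of finer cluster 10 came from saline. Finer cluster 9 thus keeps only those saline cells that clustered with cells given CSA, which by itself can shrink changes. The part of make-up in the changes was not tested.

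**Figure D3:**
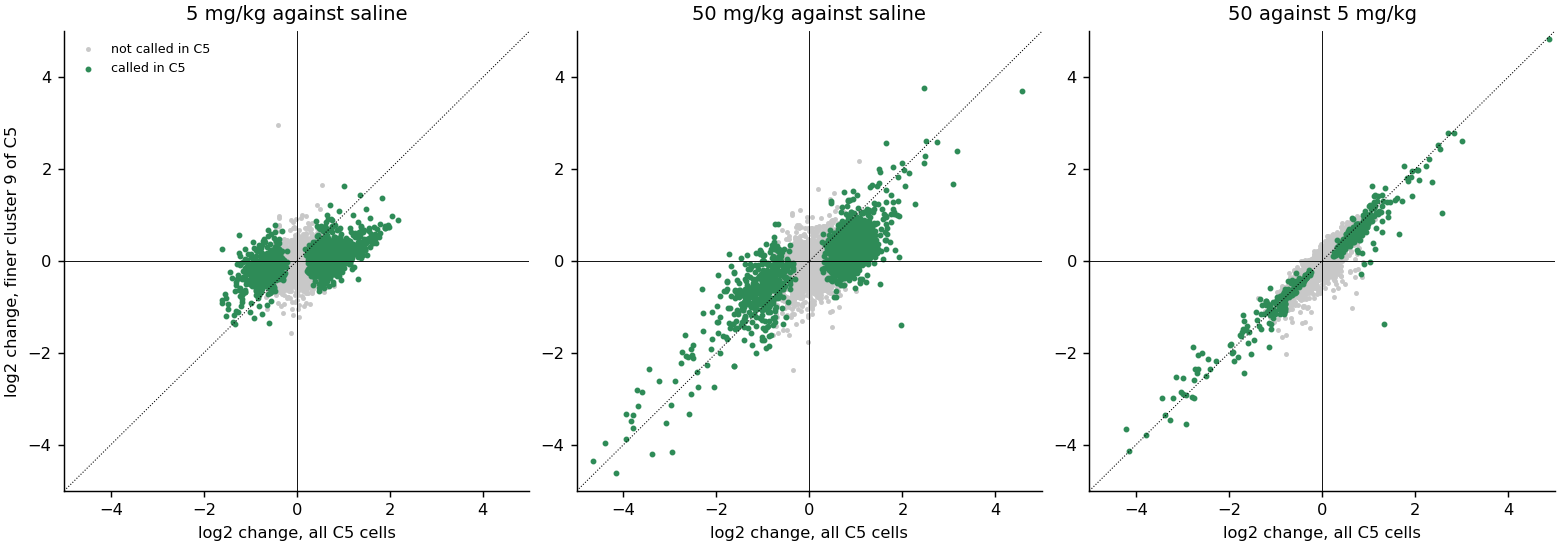
Log2 fold change of the 2916 genes tested in both cell sets, for the 3 comparisons. All C5 cells are on the horizontal axis and finer cluster 9 alone is on the vertical axis. Genes called in C5 are green and the others grey. For 5 mg/kg against saline the called genes lie near 0 on the vertical axis (median 0.11 in the direction of the call). For 50 mg/kg against saline the called genes are in between (0.30 against 0.90), and for 50 against 5 mg/kg they follow the diagonal (0.74 against 0.81). A few points beyond the axis range are not drawn.

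Tcf7 itself was lower in C5 at 50 mg/kg. The pools stood at 382, 426 and 414 CPM in saline, 355, 366 and 331 at 5 mg/kg and 134, 208 and 172 at 50 mg/kg, and the pools at 50 mg/kg lay below all others. The log2 change was -1.27 (SE 0.15, adjusted p = 5.47e-08) at 50 mg/kg and -0.23 (SE 0.10, adjusted p = 0.0787) at 5 mg/kg, and within finer cluster 9 at 50 mg/kg -0.79 (adjusted p = 0.0168). Slamf6 fell further, from 496, 549 and 457 CPM in saline and 603, 569.5 and 538 at 5 mg/kg to 111, 159 and 160.5 at 50 mg/kg. Its log2 change was -1.77 (SE 0.16, adjusted p = 6.11e-11) against saline and -1.96 (SE 0.16, adjusted p = 3.9e-11) against 5 mg/kg, and within finer cluster 9 it was -1.70 (adjusted p = 5.62e-06) against saline. Both of these markers of stem-like CD8+ cells thus fell at the high dose and did not pass the test at the low dose.

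Bcl2 and Il7r, which act in survival, were lower as well. Bcl2 stood at 289, 256 and 266 CPM in saline, 246, 205 and 217 at 5 mg/kg and 59.4, 59.5 and 141 at 50 mg/kg, where pool 3 was the highest of the group and still below every other pool. Its log2 change at 50 mg/kg was -1.41 (SE 0.21, adjusted p = 2.78e-06) against saline, within finer cluster 9 -0.90 (adjusted p = 0.0556), and within finer cluster 9 against 5 mg/kg -0.99 (adjusted p = 0.00573). Il7r stood at 451, 336 and 371 in saline, 364, 294 and 238 at 5 mg/kg and 163, 178 and 233 at 50 mg/kg. The change of Il7r was -0.92 (SE 0.18, adjusted p = 0.000168), but -0.27 (adjusted p = 0.72) within finer cluster 9, so that the call for this gene rested on all of C5.

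Id3 went differently. It stood at 172, 163 and 209.9 CPM in saline, 317, 307 and 318 at 5 mg/kg and 126, 357 and 336 at 50 mg/kg, where pool 1 was below every saline pool and pools 2 and 3 were above. The rise of Id3 was 0.78 (SE 0.15, adjusted p = 0.000111) at 5 mg/kg and 0.62 (SE 0.20, adjusted p = 0.0141) at 50 mg/kg. The second of these was lost with DESeq2 (adjusted p = 0.0506), with library size scaling, without saline pool 2 and without pool 3 at 50 mg/kg, where the log2 change was 0.29, and within finer cluster 9 it was -0.05 (adjusted p = 0.937). At the high dose no fall of Id3 was called, unlike for Tcf7, Slamf6 and Bcl2.

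The label Tcf7hi was less distinct at 50 mg/kg. There, Tcf7 was at 147 CPM in C5 without TMM scaling and at 188 in C7, and Bcl2 at 89.3 against 263, so C5 ranked second for both, where in saline it had ranked first. Slamf6 was at 128 in C5 and 98.3 in C1, the next cluster, where in saline it had been at 588 against 147. Id3, at 247 against 83.0 in C7, still ranked first. After thinning each cell to 2000 UMIs, Tcf7 was seen in 58.9%, 44.4% and 22.4% of C5 cells in the order of dose (unthinned 71.9%, 76.9% and 52.6%), against 11.2%, 6.19% and 5.16% in C1, an effector cluster. In C7 the thinned shares were 36.4%, 40.5% and 33.5%, below C5 in saline and above it at 50 mg/kg. Thinning left out 31, 7 and 0 C5 cells. Tcf7 and Slamf6 were seen together in 37.8%, 28.9% and 3.95% of the thinned C5 cells, which at 50 mg/kg was 3 of 76 cells.

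Of 15 stem-like and progenitor genes, 14 were tested, and at 50 mg/kg 3 rose and 7 fell, with a median of -0.44 beside -0.07 over all genes. Within finer cluster 9, 1 of 12 rose and 3 fell at 50 mg/kg, with a median of 0.03. At 5 mg/kg 2 of the 14 rose and 4 fell in all C5 cells. Over all tested genes, 16.2% rose and 20.4% fell at 5 mg/kg, and 17.1% rose and 17.7% fell at 50 mg/kg. The rises of this list were close to those shares at both doses. Klf2, a factor of quiescence and lymphoid homing, rose to 1067 ± 25.5 CPM from 593 ± 12.9 (log2 change 0.85, SE 0.09, adjusted p = 6.63e-09), and Eomes, a T-box factor of memory cells, rose from 52.4 ± 1.85 to 90.1 ± 8.85 CPM (log2 change 0.82, SE 0.26, adjusted p = 0.0126). Xcl1, a chemokine made by stem-like CD8+ cells for cross-presenting dendritic cells, fell from 83.1 ± 44.1 to 6.30 ± 5.81 CPM (log2 change -3.39, SE 0.71, adjusted p = 0.00033). Lef1, the TCF-1 relative, was at 187, 145 and 223 CPM and did not pass the test at 50 mg/kg (adjusted p = 0.316).

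**Figure D4:**
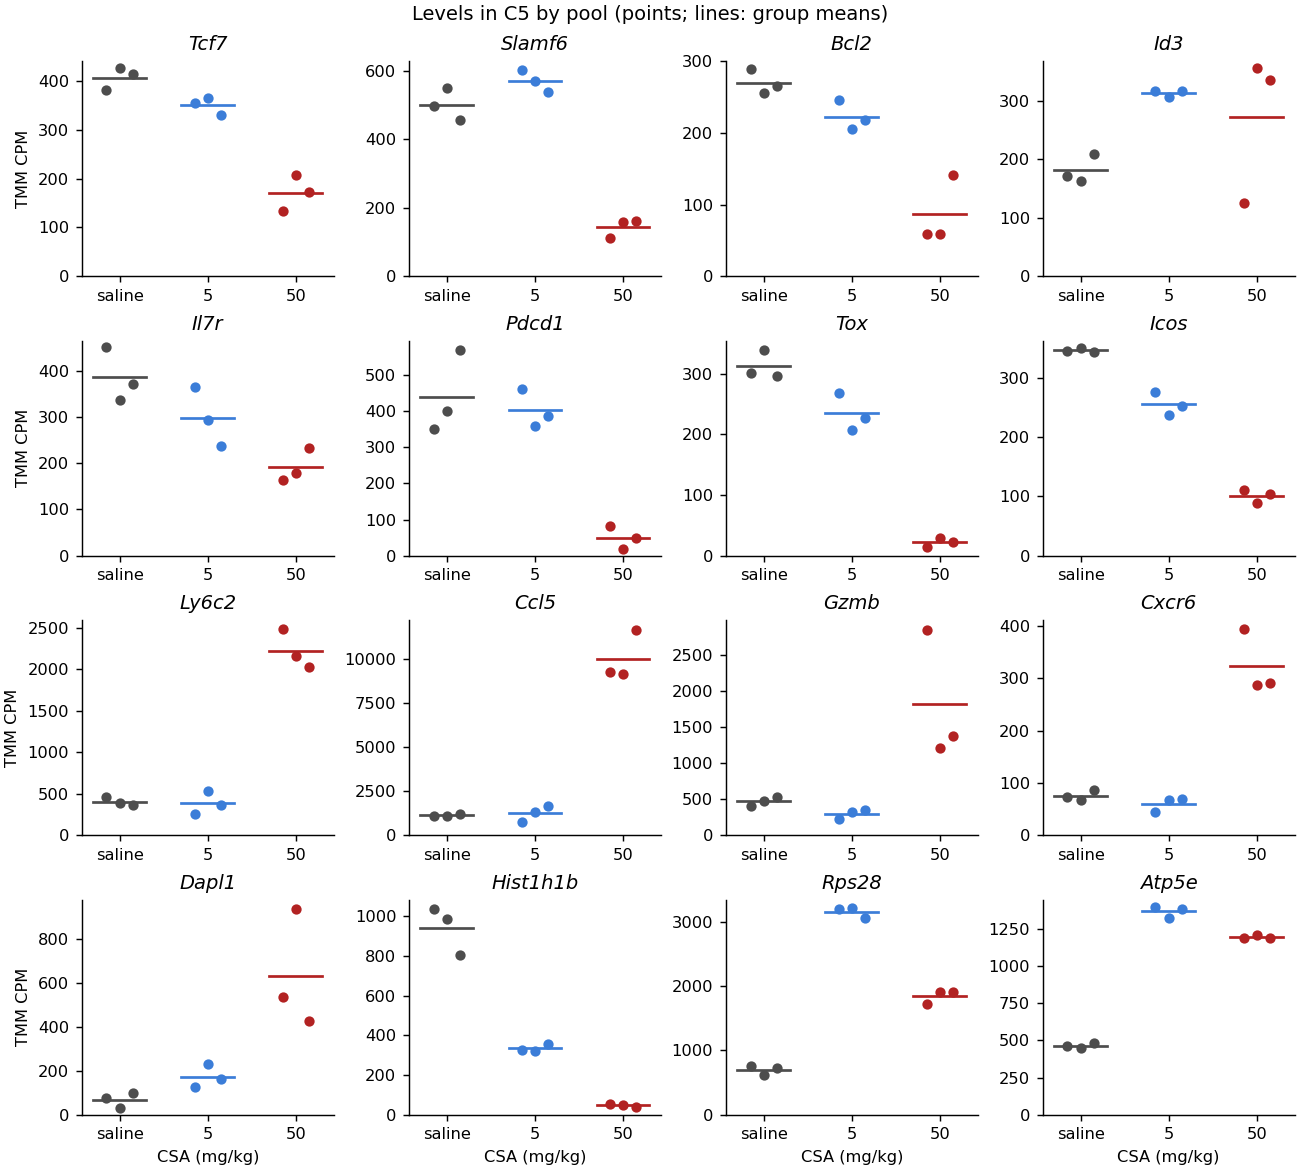
TMM-scaled CPM per pool in C5 for 16 genes named in the text, on linear axes from 0, with 3 points for the pools of each group and a line at the group mean. Tox, Pdcd1, Slamf6, Tcf7 and Hist1h1b are lower in every pool at 50 mg/kg than in any pool of saline or 5 mg/kg, and Ly6c2 and Ccl5 are higher.

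Most tested genes of follicular helper-like and exhausted T cells fell at 50 mg/kg, 10 of 12 and 8 of 12. Pdcd1, which encodes the inhibitory receptor PD-1, stood at 349, 401 and 568 CPM in saline, 461, 358 and 388 at 5 mg/kg and 81.7, 19.8 and 49.7 at 50 mg/kg. Its log2 change was -3.08 (SE 0.27, adjusted p = 3.79e-11) at 50 mg/kg and -0.15 (SE 0.13, adjusted p = 0.389) at 5 mg/kg, and -3.53 (adjusted p = 1.09e-07) within finer cluster 9 at 50 mg/kg. Tox, a nuclear factor induced by lasting TCR stimulation and needed for exhausted T cells to persist, stood at 302, 339 and 296 CPM in saline, 269, 207 and 227 at 5 mg/kg and 14.9, 29.7 and 22.9 at 50 mg/kg. For Tox the changes were -3.80 (SE 0.27, adjusted p = 3.48e-13) at 50 mg/kg, -3.64 (adjusted p = 1.56e-07) when only finer cluster 9 was used, and -0.42 (SE 0.12, adjusted p = 0.00543) at 5 mg/kg. In both genes no pool at 50 mg/kg came near a pool of another group.

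Icos, a costimulatory receptor of follicular helper T cells, stood at 345, 349 and 344 CPM in saline, 276, 237 and 252 at 5 mg/kg and 111, 89.2 and 103 at 50 mg/kg, and the 3 groups did not overlap. Its change was -1.75 (SE 0.17, adjusted p = 7.61e-10) at 50 mg/kg, -1.03 (adjusted p = 0.0226) within finer cluster 9, and -0.44 (SE 0.11, adjusted p = 0.00143) at 5 mg/kg. Cxcr5, the receptor that draws T cells to B cell follicles, stood at 38.8, 59.0 and 28.7 CPM in saline and 30.2, 42.3 and 30.0 at 5 mg/kg, and no UMI of it was counted in C5 at 50 mg/kg. Against a floor of 3 UMIs over the group, Cxcr5 was at least 7.01-fold lower at 50 mg/kg than in saline and at least 5.57-fold lower than at 5 mg/kg. Sostdc1, a secreted antagonist of BMP and Wnt ligands that follicular T cells express, was likewise at 0 at 50 mg/kg and at 77.6, 77.1 and 58.9 CPM in saline, at least 11.7-fold lower. At 5 mg/kg Sostdc1 stood at 144, 167 and 60.1 CPM and had risen (log2 change 0.73, SE 0.24, adjusted p = 0.0179).

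Of the 12 tested follicular helper-like genes, 10 fell and 0 rose at 50 mg/kg against saline, with a median of -1.76 beside -0.07 over all genes. Against 5 mg/kg 8 fell and 0 rose, with a median of -1.70, and at 5 mg/kg against saline 2 rose and 2 fell, with a median of 0.01. With genes at 0 set to their bound the 2 medians at 50 mg/kg did not move. Within finer cluster 9, 5 of 6 tested genes fell at 50 mg/kg against saline and 6 of 6 against 5 mg/kg, and 0 rose in both. Of the 12 tested inhibitory receptor and exhaustion genes, some of which are in both lists, 2 rose and 8 fell at 50 mg/kg (median -1.60), and 0 rose and 2 fell at 5 mg/kg (median -0.00). Lag3, an inhibitory receptor that binds MHC class II, fell from 382 ± 61.3 to 163 ± 6.58 CPM (log2 change -1.23, SE 0.17, adjusted p = 5.2e-07), and Tigit, an inhibitory receptor for CD155, from 279.6 ± 24.8 to 81.1 ± 36.2 CPM (log2 change -1.63, SE 0.20, adjusted p = 9.91e-08). The 2 that rose were Havcr2, which encodes TIM-3, from 18.6 ± 8.67 to 41.3 ± 10.3 CPM (log2 change 1.15, SE 0.45, adjusted p = 0.045), and Nr4a1, an immediate early nuclear receptor, from 13.5 ± 7.09 to 80.5 ± 45.7 CPM (log2 change 2.33, SE 0.53, adjusted p = 0.000865). Within finer cluster 9, 0 of 7 tested genes of this second list rose and 4 fell at 50 mg/kg. Without finer cluster 12, 1 of 12 rose and 8 fell. Havcr2 had 85 UMIs in all C5 cells together. Among all tested genes, 17.1% rose and 17.7% fell at 50 mg/kg, and 16.2% rose and 20.4% fell at 5 mg/kg. The 2 rises of the second list at 50 mg/kg were close to that share. At 5 mg/kg both counts of the first list and the falls of the second list were close to the shares as well.

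Of 19 tested genes that calcineurin and NFAT or TCR stimulation are known to induce, 3 rose and 8 fell at 50 mg/kg, with a median of -0.95, and 0 rose and 4 fell at 5 mg/kg. Over all tested genes, 17.1% rose and 17.7% fell at 50 mg/kg, and 16.2% rose and 20.4% fell at 5 mg/kg. The rises at 50 mg/kg and the falls at 5 mg/kg were close to those shares. Nfatc1, whose own promoter NFAT drives, fell at both doses, from 290.2 ± 34.6 CPM in saline to 175 ± 21.7 at 5 mg/kg (log2 change -0.72, SE 0.13, adjusted p = 4.12e-05) and 104 ± 21.7 at 50 mg/kg (log2 change -1.42, SE 0.19, adjusted p = 5.15e-07). Nrgn, which encodes a calmodulin-binding protein, was at 123 and 156 CPM in saline and at 5 mg/kg and fell to 18.7 ± 9.73 at 50 mg/kg (log2 change -2.96, SE 0.43, adjusted p = 1.63e-06), and Tnfrsf9, the costimulatory receptor 4-1BB, fell from 88.7 ± 31.1 to 23.5 ± 19.5 (log2 change -1.60, SE 0.38, adjusted p = 0.00149). The chemokine genes Ccl3 and Ccl4, which effector cells make on stimulation, were among the 3 that rose, with log2 changes of 1.30 (adjusted p = 0.00947) and 0.82 (adjusted p = 0.0322). The rises of this list depended on the cells taken. Within finer cluster 9, 0 of 10 tested genes rose and 3 fell at 50 mg/kg against saline. Without finer cluster 12, 1 of 18 rose and 7 fell. Il2 was below the count filter.

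Most tested effector genes rose in C5 at 50 mg/kg, 15 of 21. Ccl5, a chemokine stored by memory and effector CD8+ cells, stood at 1078, 1102 and 1182 CPM in saline, 773, 1310.5 and 1655 at 5 mg/kg and 9278, 9132 and 11669 at 50 mg/kg, a log2 change of 3.17 (SE 0.14, adjusted p = 2.48e-18) and of 2.40 (adjusted p = 1.76e-08) within finer cluster 9. Ly6c2, a surface protein gene that is on the list of naive and central memory cells, stood at 459, 392 and 362 in saline, 252, 534 and 366 at 5 mg/kg and 2481, 2162 and 2033 at 50 mg/kg. Its changes were 2.46 (SE 0.14, adjusted p = 1.43e-15) and, within finer cluster 9, 2.13 (adjusted p = 1.56e-07). Without TMM scaling, Ly6c2 was highest in the naive cluster C7 in saline, at 1229 CPM against 468 in C5. With CSA at either dose it was highest in the effector cluster C0. Neither gene passed the test at 5 mg/kg (adjusted p = 0.358 and 0.757), and the pools of saline and 5 mg/kg overlapped in both. Cxcr6, a receptor that guides effector cells into tissues, stood at 73.3, 68.0 and 86.2 CPM in saline, 45.2, 67.7 and 68.7 at 5 mg/kg and 394, 288 and 290.4 at 50 mg/kg (log2 change 2.06, SE 0.19, adjusted p = 8.12e-11), and within finer cluster 9 its change was 1.62 (adjusted p = 0.00338).

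Gzmb, which encodes granzyme B, was less even. It stood at 401, 473 and 538 CPM in saline, 228, 322 and 349 at 5 mg/kg and 2859.8, 1219.6 and 1383 at 50 mg/kg, where pool 1 was more than 2 times as high as the others. The log2 change at 50 mg/kg was 1.93 (SE 0.18, adjusted p = 1.07e-10) in C5 but 0.09 (adjusted p = 0.927) within finer cluster 9, where against 5 mg/kg it was 1.05 (adjusted p = 0.0171). In thinned cells Gzmb was seen in 58.9%, 36.5% and 52.6% of C5 cells (unthinned 73.5%, 70.3% and 63.2%) and in 54.5%, 51.0% and 16.1% of C7 naive cells, a cluster that should lack it, all at 2000 UMIs per cell. The share of C5 lay below that of C7 at 5 mg/kg, close to it in saline and above it only at 50 mg/kg. The part of background RNA in these shares was not tested. Klrd1, which encodes the NK receptor CD94, was steadier, at 185, 186 and 184, 172, 178 and 190.3 and 527, 585 and 753 CPM in the 3 groups, with changes of 1.80 (SE 0.13, adjusted p = 7.56e-13) and, within finer cluster 9, 2.04 (adjusted p = 3.82e-07).

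Over the whole list of cytotoxic and effector genes, with 21 tested, 15 rose and 2 fell at 50 mg/kg against saline (median 1.30), 14 rose and 0 fell against 5 mg/kg (median 1.05), and 4 rose and 5 fell at 5 mg/kg against saline (median -0.14). The counts at 5 mg/kg against saline were close to the shares over all tested genes, 16.2% for rises and 20.4% for falls. At 50 mg/kg against saline those shares were 17.1% and 17.7%. Within finer cluster 9, 9 of 18 rose and 1 fell at 50 mg/kg. The members that fell in all C5 cells at 50 mg/kg were Cd226, a costimulatory receptor, and Cx3cr1, the receptor of terminal effector cells, which had no UMI there and was at least 3.00-fold lower than in saline. The 10 largest rises at 50 mg/kg also held genes outside this list. Anxa1, an annexin, rose from 11.8 ± 6.31 to 208 ± 60.5 CPM (log2 change 4.05, SE 0.33, adjusted p = 8.23e-12), Capg, an actin capping protein, from 72.3 ± 6.91 to 405 ± 50.3 (log2 change 2.50, SE 0.17, adjusted p = 1.73e-13), S100a4, a calcium-binding protein and a member of the list, from 112 ± 23.7 to 545 ± 79.2 (log2 change 2.27, SE 0.16, adjusted p = 2.54e-13), and Ccr2, a receptor for inflammatory chemokines, from 27.3 ± 12.9 to 149 ± 40.6 (log2 change 2.46, SE 0.30, adjusted p = 5.54e-08). Ctla2a, a cathepsin inhibitor of activated T cells that is also on the list, rose from 49.1 ± 19.1 to 310.3 ± 74.1 (log2 change 2.75, SE 0.23, adjusted p = 1.22e-11). Dapl1, a gene of naive and stem-like CD8+ cells, rose at both doses, from 77.6, 28.7 and 99.2 CPM in saline to 125, 231 and 160.2 at 5 mg/kg (log2 change 1.32, SE 0.27, adjusted p = 0.000234) and 535, 932 and 424 at 50 mg/kg (log2 change 3.09, SE 0.27, adjusted p = 3.37e-11). For finer cluster 9 alone the change of Dapl1 was -0.39 (adjusted p = 0.836) at 5 mg/kg and 1.68 (adjusted p = 0.00237) at 50 mg/kg.

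Of 23 tested replication-dependent histone genes, taken by symbol after their values were seen, 0 rose at either dose, 22 fell at 5 mg/kg (median -1.30) and 23 fell at 50 mg/kg (median -3.78). Within finer cluster 9, 6 of 12 fell at 5 mg/kg and 12 of 12 at 50 mg/kg. Hist1h1b, a linker histone made in S phase, stood at 1035, 984 and 804 CPM in saline, 325, 319.7 and 358 at 5 mg/kg and 52.0, 49.6 and 38.2 at 50 mg/kg, with changes of -1.48 (SE 0.10, adjusted p = 4.84e-14) and -4.39 (SE 0.20, adjusted p = 4.44e-18), and within finer cluster 9 of -1.05 (adjusted p = 2.56e-05) and -3.96 (adjusted p = 4.04e-10). Of the 10 genes that the rule named as the largest falls at 50 mg/kg, 8 were histone genes. For Hist1h2ab, 3 UMIs were left at 50 mg/kg against 504 in saline, a level 45.9-fold lower with an exact 95% counting interval from 15.6 to 223-fold. Replication-dependent histone genes are near-identical copies whose reads the authors' counting could split, and their transcripts mostly lack poly(A) tails, so single members are uncertain. Of 13 tested S phase genes other than histones, 0 rose and 5 fell at 50 mg/kg, and of 15 mitosis genes 0 rose and 4 fell, with medians of -0.72 and -1.04. Without finer cluster 12 the falls were 6 of 13 and 10 of 13 (medians -1.08 and -1.96), and with library size scaling 9 of 13 and 13 of 15. Over all tested genes, 17.7% fell at 50 mg/kg with TMM scaling, and 2387 of 6654 fell with library size scaling.

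Of 15 tested interferon-stimulated genes, 9 rose and 1 fell at 50 mg/kg (median 1.13), most of all in 1 pool. Ifit1, an antiviral RNA-binding protein gene, stood at 36.6, 40.8 and 61.8 CPM in saline, 47.4, 59.3 and 35.8 at 5 mg/kg and 498, 109 and 99.3 at 50 mg/kg (log2 change 2.17, SE 0.37, adjusted p = 2.18e-05), and Isg15, a ubiquitin-like modifier, at 121, 153 and 115, 230.5, 277 and 127 and 1092, 248 and 279 (log2 change 1.98, SE 0.32, adjusted p = 8.66e-06). Pool 1 at 50 mg/kg was the highest for both and was the pool with 9 cells in finer cluster 12. Without that finer cluster 3 of 13 tested genes rose and 1 fell, the change of Ifit1 was 0.37 (adjusted p = 0.698) and that of Ifit3, its partner, 0.15 (adjusted p = 0.872). Without pool 1, 7 of 15 rose and 1 fell (median 0.50), and the changes of Ifit1 and Ifit3 were 1.10 (adjusted p = 0.00653) and 1.36 (adjusted p = 0.000627). Ifitm1, a membrane protein that is also interferon-inducible, had 192 UMIs in saline and 1 at 50 mg/kg, a level 52.4-fold lower with an exact 95% counting interval from 9.30 to 2081-fold.

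Of the 10 largest rises at 5 mg/kg, 8 were genes of ribosomal proteins. Rps28, a protein of the small ribosomal subunit, stood at 757, 611 and 730.2 CPM in saline, 3196, 3216 and 3062 at 5 mg/kg and 1716, 1914 and 1903 at 50 mg/kg, with a change of 2.18 (SE 0.08, adjusted p = 3.15e-20) at 5 mg/kg, and Rpl38, of the large subunit, at 634, 608 and 634, 2636, 2577 and 2565 and 1627, 1577 and 1669.7 (log2 change 2.05, SE 0.07, adjusted p = 3.15e-20). Both were higher in every pool given CSA than in saline and highest at 5 mg/kg. The other 8 of the 10 largest rises at 5 mg/kg were Rpl39, Rps21, Rps29, Rpl37, Rpl41 and Rpl36, also of the ribosome, Atp5k, a subunit of ATP synthase, and Gm10076, a copy of a ribosomal protein gene whose reads may belong to its parent. Of 80 tested cytosolic ribosomal protein genes, 79 rose and 0 fell at either dose against saline, with medians of 1.15 at 5 mg/kg and 0.99 at 50 mg/kg, which with library size scaling were 0.74 and 0.54. The share of all C5 UMIs from 82 ribosomal protein genes was 16.7% to 18.5% in saline pools, 31.4% to 31.7% at 5 mg/kg and 25.5% to 28.1% at 50 mg/kg. In the other CD8+ cells it was 13% to 13.5%, 21.5% to 22.3% and 21.5% to 22.3%, so it moved with the capture outside C5 as well. Within saline, it was 28.8% to 29.0% in the C5 cells of finer cluster 9 and 13.1% to 13.6% in those of finer cluster 10. In finer cluster 9, 22 of 79 rose and 0 fell at 5 mg/kg (median 0.14), and 0 rose and 4 fell at 50 mg/kg (median 0.00).

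Of 79 tested nuclear genes of oxidative phosphorylation, 71 rose and 0 fell at 5 mg/kg (median 0.77) and 70 rose and 2 fell at 50 mg/kg (median 0.92). With library size scaling 43 rose and 6 fell (median 0.35), and 46 rose and 4 fell (median 0.47). These and the other genes of the list, 84 in all, made up 1.97% to 2.05% of C5 UMIs in saline pools, 2.73% to 2.81% at 5 mg/kg and 2.69% to 2.85% at 50 mg/kg. In the other CD8+ cells the ranges were 2.04% to 2.07%, 3.08% to 3.15% and 3.00% to 3.09%, so this share moved outside C5 as well. Atp5e, a subunit of ATP synthase, stood at 459, 448 and 482 CPM in saline, 1400.0, 1325 and 1381 at 5 mg/kg and 1189, 1209.7 and 1188 at 50 mg/kg (log2 change 1.37, SE 0.09, adjusted p = 9.26e-14 at 50 mg/kg), and the cytochrome c oxidase genes Cox6c and Cox7c changed by 1.28 (SE 0.11, adjusted p = 5.75e-11) and 1.10 (SE 0.13, adjusted p = 6.24e-08). The study chose these 3 genes on these samples, so they are no independent evidence of the list's direction. In finer cluster 9 the change at 50 mg/kg was 0.20 (adjusted p = 0.312) for Atp5e, 0.38 (adjusted p = 0.12) for Cox6c and -0.08 (adjusted p = 0.881) for Cox7c, and over the list 0 of 78 genes rose and 0 fell there by edgeR (median 0.04). Of the 13 genes of the mitochondrial genome, 2 rose and 1 fell at 5 mg/kg and 1 rose and 3 fell at 50 mg/kg, so transcripts of the mitochondrial genome did not rise with the nuclear ones.

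The genes that fell at 5 mg/kg had long transcripts. The median transcript length was 1977 bases for the genes that fell and 775.5 bases for those that rose, beside 1170 over all tested genes, and at 50 mg/kg it was 1914.75 and 803 bases. Between 5 and 50 mg/kg the lengths were 1167 for falls and 966 for rises. Among the largest falls at 5 mg/kg were Man2a1, a Golgi mannosidase, from 113 ± 22.2 to 32.1 ± 7.97 CPM (log2 change -1.79, SE 0.22, adjusted p = 1.07e-07), Huwe1, a large ubiquitin ligase, from 169 ± 21.6 to 53.4 ± 5.30 (log2 change -1.63, SE 0.18, adjusted p = 8.01e-09), and Adam10, a surface protease that cleaves Notch and other receptors, from 129 ± 3.29 to 41.8 ± 10.6 (log2 change -1.61, SE 0.21, adjusted p = 1.56e-07). Of 16 tested cytokine receptor genes, 0 rose and 11 fell at 5 mg/kg (median -0.61), and 1 rose and 6 fell at 50 mg/kg (median -0.31). Il6st, the shared signalling chain of the interleukin-6 family, fell from 61.5 ± 4.61 CPM to 23.1 ± 8.57 at 5 mg/kg (log2 change -1.33, SE 0.27, adjusted p = 0.000243), and 3 UMIs of it were counted at 50 mg/kg. Il18r1, which binds interleukin-18, went from 303 ± 14.3 to 186 ± 16.8 (log2 change -0.72, SE 0.12, adjusted p = 1.93e-05) and 98.2 ± 24.7 (log2 change -1.52, SE 0.19, adjusted p = 6.16e-08). In finer cluster 9, 0 of 8 tested cytokine receptor genes rose and 0 fell at 5 mg/kg by edgeR. Depth differed with the dose as well, and the part of depth and transcript length in these changes was not tested.

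For the remaining lists the shares over all genes at 50 mg/kg were 17.1% for rises and 17.7% for falls, as above. Of 14 tested genes of naive and central memory cells 3 rose (median 0.19), Dapl1, Ly6c2 and Klf2, and 1 fell, Itga4, an integrin chain, from 1581 ± 137 to 285 ± 157 CPM (log2 change -2.28, SE 0.16, adjusted p = 1.25e-13). Of 14 apoptosis genes 3 rose and 2 fell, close to those shares, and 2 rose and 4 fell with library size scaling. Bad and Bax, which promote cell death, rose by 1.75 (adjusted p = 9.43e-05) and 1.01 (adjusted p = 0.000168), while Bcl2l11, which encodes BIM, fell along with Bcl2. In finer cluster 9, 0 of 9 apoptosis genes rose and 0 fell by edgeR. Of 15 glycolysis genes 6 rose and 4 fell, but 1 rose and 7 fell with library size scaling. Of 11 dissociation and stress genes 6 rose and 1 fell (median 0.65), and 4 rose and 4 fell with library size scaling. Within finer cluster 9, 0 of 12 glycolysis genes and 0 of 9 dissociation and stress genes rose, and 1 of each list fell. Of the lists of other cell types, 2 B cell and plasma cell, 3 myeloid and 1 NK gene passed the count filter, 0 of which rose or fell at either dose by edgeR, and no CD4+ T cell, erythroid or platelet gene passed it.

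Whether C5 responded differently from other CD8+ cells was tested as an interaction of cell set and dose with pool as a block. Of 9955 tested genes, the change at 50 mg/kg was more positive in C5 for 36 (0.362%) and more negative for 95 (0.954%), and at 5 mg/kg for 16 (0.161%) and 74 (0.743%). This split depended on the cells compared. Against only the other clusters that were not cycling, 54 genes were more positive and 25 more negative at 50 mg/kg, and 71 and 28 at 5 mg/kg, whereas with finer cluster 9 alone the counts were 77 and 619, and 137 and 540. The log2 change of Slamf6 was -1.77 in C5 and -0.10 in the other CD8+ cells, and the difference was -1.67 (SE 0.17, adjusted p = 7.88e-12), or -1.58 (adjusted p = 7.05e-10) with finer cluster 9 alone. Icos differed by -1.0 (SE 0.21, adjusted p = 0.0013), Il7r by -0.98 (SE 0.17, adjusted p = 9.88e-05) and Tcf7 by -0.75 (SE 0.20, adjusted p = 0.0348), but with finer cluster 9 alone these were -0.28 (adjusted p = 0.754), -0.32 (adjusted p = 0.642) and -0.24 (adjusted p = 0.731).

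For the falls of Tox and Pdcd1 and the rises of Ly6c2 and Ccl5 the test called no difference. In the other CD8+ cells Tox changed by -4.02 and Pdcd1 by -3.21, and the differences of C5 from them were 0.16 (SE 0.45, adjusted p = 0.949) and -0.09 (SE 0.34, adjusted p = 0.965). For Ly6c2 the other cells changed by 2.64 and for Ccl5 by 2.97, with differences of -0.13 (SE 0.11, adjusted p = 0.727) and 0.23 (SE 0.11, adjusted p = 0.43). Cxcr6, by contrast, changed by 0.33 in the other CD8+ cells, and the difference was 1.78 (SE 0.18, adjusted p = 3.03e-12), or 1.39 (adjusted p = 0.00202) with finer cluster 9 alone. For Havcr2, which fell in the other CD8+ cells (-1.41), the difference was 2.57 (SE 0.45, adjusted p = 7.86e-05), and for Capg and Ccr2 it was 1.05 (SE 0.17, adjusted p = 2.13e-05) and 1.62 (SE 0.28, adjusted p = 4.44e-05). The make-up of the other CD8+ cells changed too. Havcr2 was highest in C4, at 426 CPM against 24.1 in C5, unscaled and averaged over pools with at least 10 cells. C4 held 1015 cells in saline and 20 at 50 mg/kg, and its part in the difference was not tested. Gzmb differed by 1.91 (SE 0.12, adjusted p = 4.71e-23) in all C5 cells and by 0.18 (adjusted p = 0.671) in finer cluster 9. Of 24 tested cytotoxic and effector genes, 3 were more positive and 1 more negative in C5 at 50 mg/kg, and 0 were more positive and 8 more negative at 5 mg/kg.

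**Figure D5:**
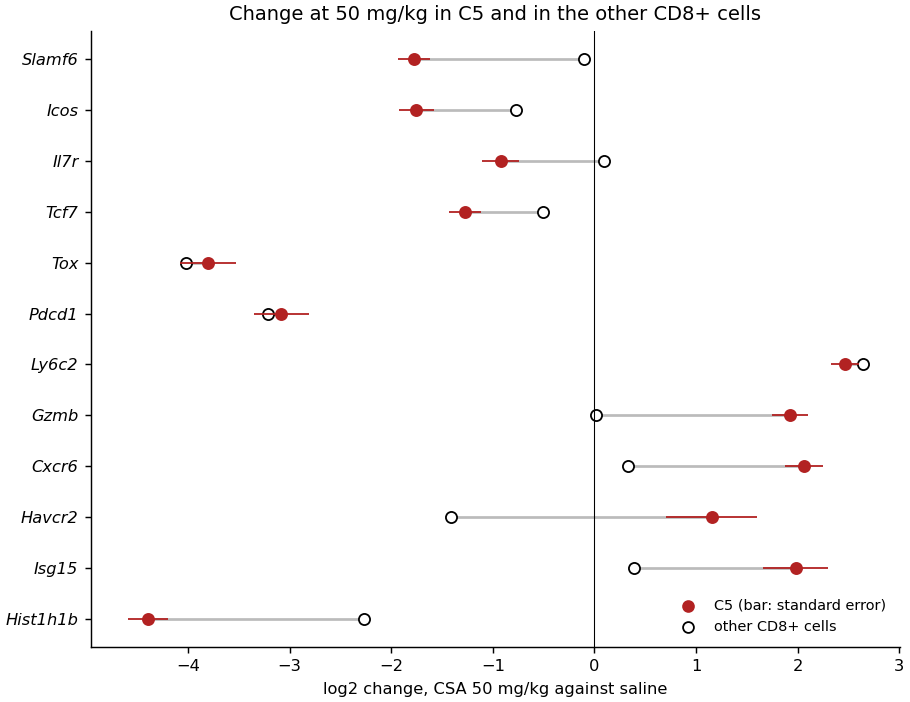
Log2 fold change at 50 mg/kg against saline of named genes in C5 (filled) and in the other CD8+ cells (open), from edgeR. Bars are standard errors for C5. The test called no difference for Tox, Pdcd1 and Ly6c2, Slamf6 falls in C5 (-1.77) beside -0.10 in the others, and Cxcr6 rises in C5 (2.06) beside 0.33.

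The response of C5 was also set beside that of the naive CD8+ cluster C7, with 432 cells. Of 5384 tested genes, 447 (8.3%) changed more positively and 198 (3.68%) more negatively in C5 than in C7, a split that turned to 195 and 558 with library size scaling. In C7 the change of Tcf7 was -0.27 and that of Bcl2 0.08, and the differences of C5 from it were -1.11 (SE 0.27, adjusted p = 0.00427) and -1.65 (SE 0.34, adjusted p = 0.000475). Ly6c2 changed by 0.07 in C7, with a difference of 2.31 (SE 0.15, adjusted p = 4.53e-15), and Ccl5 by 1.14, with a difference of 2.01 (SE 0.18, adjusted p = 3.57e-11). Among the genes that the rule named, Ikzf2, which encodes Helios, stood at 90.5, 78.6 and 102 CPM in saline C5 and at 7.43, 9.92 and 7.64 at 50 mg/kg, and its change differed from that in C7 by -4.73 (SE 1.12, adjusted p = 0.00267). Gzmb changed in C7 by -1.32 (adjusted p = 1.33e-05), which left a difference of 3.08 (SE 0.26, adjusted p = 1.53e-11). Rsad2, Isg15, Ccl3 and Zbtb32 made up the rest of the 5 most positive differences, at 4.80 (SE 1.13, adjusted p = 0.00252) for the antiviral enzyme gene Rsad2 and 2.94 (SE 0.87, adjusted p = 0.0198) for Ccl3. Rsad2 and Isg15 are interferon-stimulated genes, fewer of which rose in C5 without the finer cluster set apart by such genes. Without that finer cluster, 358 genes changed more positively and 197 more negatively in C5 than in C7, of 5253. The differences of Rsad2 and Isg15 without it are not reported here. Gnptab, Clec2i, Hipk1 and Syt11 followed Ikzf2 among the most negative, at -3.73 (SE 0.71, adjusted p = 0.000176) for Gnptab, which acts in the sorting of lysosomal enzymes. Of the ribosomal protein genes, 79 of 80 changed more positively in C5 and 0 more negatively, and with finer cluster 9 alone the calls against C7 were 23 and 3 among 3743 genes.

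C2 of the CD4+ T cells, which the authors called precursor-like, was also compared with C5. How alike the CD4+ clusters are to C5 was not measured. Of 7082 tested genes, 575 (8.12%) changed more positively and 270 (3.81%) more negatively in C5, which with library size scaling became 296 and 696. Slamf6 changed by -0.46 in CD4+ C2, and the difference was -1.29 (SE 0.18, adjusted p = 5.91e-07). Bcl2 differed by -1.29 (SE 0.26, adjusted p = 0.000292). Pdcd1 changed by -2.79 in CD4+ C2 and no difference was called, -0.31 (SE 0.48, adjusted p = 0.744), whereas Tox differed by -1.57 (SE 0.43, adjusted p = 0.0104). Nrn1, which encodes neuritin, went from 23.3 to 92.6 CPM in C5 and from 8.10 to 369 CPM in CD4+ C2, a difference of -3.72 (SE 0.47, adjusted p = 6.19e-08). The 5 most positive differences were those of Gzma, Ifit1, Ifit3, Isg15 and Cd8b1, at 4.09 (SE 0.38, adjusted p = 1.92e-11) for the granzyme A gene Gzma. Cd8b1 encodes the CD8 beta chain, which CD4+ T cells do not use. Itm2a, Gnptab, Eea1 and Igf2r followed Nrn1 on the negative side, at -3.07 (SE 0.41, adjusted p = 2.59e-07) for Itm2a. Of 16 interferon-stimulated genes 14 were more positive and 0 more negative in C5. Within C5, 9 of 15 such genes rose at 50 mg/kg against saline, but 3 of 13 without the finer cluster set apart by them. Without that finer cluster, 386 genes changed more positively and 277 more negatively in C5 than in CD4+ C2, of 7028. The number of interferon-stimulated genes among these is not reported here. With finer cluster 9 alone, 13 and 44 genes of 6352 were called against CD4+ C2.

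The TCR sequences gave a readout separate from the gene counts. Of the C5 cells 654 had a clonotype, and they held 628 clonotypes. Cells with 1 chain only were included. In pool 1 at 5 mg/kg, for example, 72 of the 73 C5 cells with a clonotype had a beta chain. Of these, 127 were held by 2 or more CD8+ cells of the same pool, 12 of them by C5 cells only and 115 also by cells of other clusters. The 338 cells of other clusters that shared a clonotype with C5 were 103 in C4, 87 in C2, 67 in C3, 36 in C0, 25 in C1, 14 in C6, 6 in C8 and 0 in C7, so cells with a C5 clonotype were found in cycling and effector clusters and none was in the naive cluster. The order was set by saline, which held 99 of the 103 cells in C4, 39 of them from 1 clonotype. At 5 mg/kg most of the 66 cells were in C2, with 34, and the 17 cells at 50 mg/kg were led by 5 in C1. The CDR3 sequences of the 3 clonotypes of 3 cells each that were found in C5 only, all at 5 mg/kg, and of the largest clonotype that C5 shared, from saline pool 2, are given in nucleotides with the first and last codon in capitals.
C5 only, 5 mg/kg pool 1, first, alpha chain TRAV14D-1 with TRAJ26: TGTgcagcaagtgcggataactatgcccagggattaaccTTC
C5 only, 5 mg/kg pool 1, first, beta chain TRBV3 with TRBJ2-7: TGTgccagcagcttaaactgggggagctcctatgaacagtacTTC
C5 only, 5 mg/kg pool 1, second, alpha chain TRAV6-6 with TRAJ48: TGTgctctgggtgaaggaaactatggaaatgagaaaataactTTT
C5 only, 5 mg/kg pool 1, second, beta chain TRBV13-3 with TRBJ2-1: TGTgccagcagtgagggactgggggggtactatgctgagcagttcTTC
C5 only, 5 mg/kg pool 3, alpha chain TRAV16 with TRAJ57: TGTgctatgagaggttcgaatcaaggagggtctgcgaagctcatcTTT
C5 only, 5 mg/kg pool 3, beta chain TRBV12-1 with TRBJ2-5: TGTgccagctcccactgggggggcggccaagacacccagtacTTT
shared, saline pool 2, alpha chain TRAV16 with TRAJ34: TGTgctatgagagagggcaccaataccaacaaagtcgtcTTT
shared, saline pool 2, beta chain TRBV13-3 with TRBJ1-1: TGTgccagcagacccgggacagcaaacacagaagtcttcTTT
The last of these clonotypes was held by 64 CD8+ cells, of which 39 were in C4, 13 in C2, 6 in C3, 3 in C1, 2 in C0 and 1 in C5.

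A clonotype was counted as expanded when 2 or more CD8+ cells of the pool held it, after each pool was thinned to 565 CD8+ cells with a clonotype. Of the C5 cells with a clonotype, 11.8%, 16.1% and 15% were in expanded clonotypes in the saline pools, 28.8%, 16.3% and 19.9% at 5 mg/kg, and 22.3%, 14.4% and 7.37% at 50 mg/kg. The groups overlapped, and the exact permutation test of a trend gave p = 0.831. The other CD8+ cells stood at 30.4% ± 1.80 in saline, 19.9% ± 2.36 with the low dose and 16.1% ± 2.23 with the high dose (SD, n = 3), with p = 0.00357 for the trend by the exact permutation test. Over the 9 pools the share of C5 minus that of the other cells was -5.27 points (lower in 5 of 9 pools, exact sign-flip permutation test, p = 0.137), but this mean joins unlike groups. In saline the difference was -16.1 ± 3.84 points and C5 was lower in all 3 pools, with the low dose it was 1.74 ± 5.27 and with the high dose -1.41 ± 6.26. The exact permutation test of the difference gave p = 0.1, the smallest possible, for either dose against saline. With expanded taken as 3 or more cells the difference was -5.15 points (lower in 7 of 9 pools, exact permutation p = 0.0391). At 50 mg/kg the thinned shares rest on a mean of 9.65 to 13.2 C5 cells per pool, so they are imprecise. How large a difference could be detected there was not tested. Of 21 TRBV genes, 0 differed in use between C5 and the other CD8+ cells by the exact sign-flip permutation test (smallest p = 0.0586, for TRBV29, adjusted p = 0.882).

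The promoters of Pdcd1, which fell at 50 mg/kg in all of C5 and in finer cluster 9, and of Cxcr6, whose rise was larger in C5 than in other CD8+ cells, were chosen after these values were known and searched for GGAAA, the core that NFAT proteins recognise, on both strands. The 250 bases before the start of each gene are from RefSeq, build GRCm38.p6, written in the direction of transcription with the motif in capitals, where TTTCC is the motif on the opposite strand.
Pdcd1, chr1:94052554-94052803, minus strand: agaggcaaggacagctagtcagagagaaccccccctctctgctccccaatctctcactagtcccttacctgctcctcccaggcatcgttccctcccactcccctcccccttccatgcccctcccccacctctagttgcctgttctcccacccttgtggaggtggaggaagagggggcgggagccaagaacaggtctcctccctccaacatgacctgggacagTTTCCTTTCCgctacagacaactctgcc
Cxcr6, chr9:123806227-123806476, plus strand: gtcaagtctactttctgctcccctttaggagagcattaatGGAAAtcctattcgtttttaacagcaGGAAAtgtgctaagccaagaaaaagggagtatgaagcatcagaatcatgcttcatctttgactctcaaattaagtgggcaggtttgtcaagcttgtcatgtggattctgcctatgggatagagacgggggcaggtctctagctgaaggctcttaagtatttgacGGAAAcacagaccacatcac
The motif occurred 2 times in the first and 3 times in the second, the most among the promoters of named genes that were searched. In the same 250 bases it occurred 1 time each for Il7r and Bcl2. It occurred 0 times for Tcf7, Id3, Slamf6, Ly6c2 and Gzmb, though Slamf6 and Ly6c2 also changed strongly. For Cxcr5, Tox, Icos and Sostdc1 no promoter sequence was at hand. Within 250 bases before and 50 after the start, 16574 of 27025 promoters held it (61.3%), as did 60.1% of those of tested genes, 61.8% of those of genes that rose between 5 and 50 mg/kg and 65.4% of those that fell. For 50 mg/kg against saline the order was the opposite, with 63.7% for rises and 58.4% for falls. So short a motif is common, and the matches are a description of these sequences.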

How the data were processed

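The deposited UMI counts per gene and cell, which the authors made with Cell Ranger on mm10 (10x 5' libraries with antibody and hashtag tags and TCR sequencing), covered 21204 cells and 18029 genes. The authors' tables of cells gave the deposited pool hashtags, clusters (Seurat 3.0.0 per the submitters' processing notes), clonotypes and the fraction of mitochondrial UMIs. Summed counts per cell equalled the UMI number in those tables for all 21204 cells. C5 carried the number 4 in the table. How the authors removed doublets was not given in the sources used here, and none were removed from C5.

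Counts were summed per pool over C5 and over the sets it was compared with, each of at least 10 cells per pool. Genes were tested with the quasi-likelihood test of edgeR 4.0.16 (R 4.3.3, limma 3.58.1) over all 9 pools, with filterByExpr, TMM scaling and no covariates. Interactions with other cell sets took the pool as a block. DESeq2 1.42.0, library size scaling, other filters, each pool left out and subsets of cells were alternatives. Shares and clonotypes were tested with exact permutation tests in Python 3.11.15 (scipy 1.17.1), two-sided. The scripts were tested on simulated data. Pools hold from 112605 to 778047 UMIs of C5, so genes of few UMIs at 50 mg/kg have wide errors. A fold against 0 UMIs used a floor of 3 UMIs over the group.

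Genes were named by rule: the markers, the 15 genes furthest above the other CD8+ cells in every pool (at least 50 CPM, with 5 CPM added), the 10 largest rises and falls per dose and the 5 largest differences per interaction among called genes of at least 50 CPM without overlap of pools, the genes the study names for C5, and up to 6 members per list with the smallest adjusted p or that define it. Some genes that the rule takes in are not reported here. The members, lists and tests were chosen with earlier results of these data known.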

Additional observations from a re-analysis of the deposited data

Results flagged for a closer look

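The change at 50 mg/kg against saline differed between C5 and the other CD8+ cells for 9 genes among those with the largest differences in the interaction test of edgeR. On the positive side the difference was 2.57 (SE 0.45, adjusted p = 7.86e-05) for Havcr2, 1.97 (SE 0.40, adjusted p = 0.000905) for Usp18, which removes ISG15 from proteins, 1.91 (SE 0.12, adjusted p = 4.71e-23) for Gzmb and 1.78 (SE 0.18, adjusted p = 3.03e-12) for Cxcr6. With finer cluster 9 alone, the difference of Usp18 was 0.94 (adjusted p = 0.656) and that of Gzmb 0.18 (adjusted p = 0.671). C4, the highest cluster for Havcr2 and Gzmb, held 1015 of the other CD8+ cells in saline and 20 at 50 mg/kg. Its part in these differences was not tested.

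On the negative side the fitted difference was -10.26 (SE 1.87, adjusted p = 0.000161) for Hist1h2ap, -4.82 (SE 0.77, adjusted p = 1.17e-05) for Ifitm1, -2.87 (SE 0.38, adjusted p = 3.83e-08) for Hist1h2ae, -2.79 (SE 0.57, adjusted p = 0.00114) for Hist1h2ab and -2.09 (SE 0.24, adjusted p = 7.75e-10) for Hist1h1b. Hist1h2ap had 0 UMIs and Ifitm1 1 UMI in C5 at 50 mg/kg, so these fitted values are no bounds. Against the CD8+ clusters that were not cycling, the difference was -0.57 (adjusted p = 0.796) for Hist1h2ae, -1.18 (adjusted p = 0.615) for Hist1h2ab and -0.43 (adjusted p = 0.691) for Hist1h1b. The summed level of 4 cycling markers was 515 to 610 CPM in C5 in saline and 177 to 312 at 50 mg/kg, and 2822 to 2994 and 1033 to 1276 in the other CD8+ cells, whose part in these differences was not tested.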

How the results depend on the processing

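With finer cluster 9 alone, chosen after seeing the data, the number of called genes was 197 at 50 mg/kg against saline, 38 at 5 mg/kg and 274 between the doses, and the differences from the other CD8+ cells numbered 696 at 50 mg/kg and 677 at 5 mg/kg, from C7 26 and from CD4+ C2 57. It holds fewer cells, and fewer genes were tested. DESeq2 called 1497 genes at 5 mg/kg against saline. Without 1 pool at a time, 1459 to 2330 genes were called at 50 mg/kg against saline and 534 to 836 differed from CD4+ C2, with both lowest values without pool 3 at 50 mg/kg, the deepest of its group. Against CD8+ clusters that were not cycling, 79 genes differed at 50 mg/kg.

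The share of C5 differed by -16.6 points (exact permutation trend p = 0.0214) outside the cycling clusters, by -8.07 (p = 0.0286) without saline pool 1 and by -7.51 (p = 0.0286) without pool 1 at 5 mg/kg, with a range of -8.07 to -7.17 over the pools left out, and edgeR on cell numbers gave a log2 change of -2.16. The difference in expanded clonotypes between 50 mg/kg and saline, 0.390 points, was -0.880 without saline pool 1, -3.42 without pool 1 at 50 mg/kg, -1.33 with the beta chain only and -4.68 with 3 or more cells, with a range of -3.42 to 4.05 over the pools left out. Against the other CD8+ cells the value with 3 or more cells was -5.15. The log2 change of Id3 at 50 mg/kg was -0.055 and that of Cox7c -0.077 in finer cluster 9, and that of Gm26917 at 5 mg/kg 0.26 in finer cluster 9. The cause was not tested. Of the other values of named genes under the alternatives, 908 kept direction and call and 14 lost the call.

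The deviations of pools with the same number had correlations from -0.043 to 0.015. With as few as 18 C5 cells in a pool, they cannot settle whether the numbers pair the pools. Among the other CD8+ cells, cells with 2 strong hashtags rose with the pool number in each group. They were 0.231%, 4.89% and 5.98% in saline, 0%, 7.63% and 15.9% at 5 mg/kg and 0%, 7.78% and 11.7% at 50 mg/kg. With the pool number as a replicate block, 2209, 2334 and 478 genes were called, and no call of a named gene changed.

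Depth limits what can be said at 50 mg/kg, where C5 held 18 to 34 cells per pool.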
